A study of Mus musculus with 3 samples.

Results

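Neurexins and neuroligins are the adhesion molecules that join the sending and the receiving side of a synapse. ATRX ChIP-seq peaks were counted here at 5 of their genes in cultured mouse neurons. The genes were Nrxn2 and Nrxn3, which encode presynaptic neurexins, and Nlgn1, Nlgn2 and Nlgn3, which encode their postsynaptic partners, the neuroligins. They were taken by name from 21887 protein-coding genes, and no measured value enters that rule, although earlier results of these data were known when the genes were chosen. Every deposited ATRX peak that touched the annotated span of a gene or the 5 kb on either side was taken, which gave 132 of 112153 control peaks and 128 of 105674 MICAL1-FL peaks.

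Neurexins reach across the synaptic cleft and bind neuroligins, and both anchor scaffold proteins inside the cell. Neurexin genes are known for several promoters, an upstream one for the long alpha forms and an internal one for the short beta forms. Nlgn1 is known mainly from excitatory synapses, Nlgn2 from inhibitory synapses and Nlgn3 from both. ATRX, an ATP-dependent chromatin remodeller, places the histone variant H3.3 together with DAXX, mostly at repeats and heterochromatin.

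The neurons were primary cultures from C57BL6/J embryos of E15.5 to E17.5, and the labels do not give the brain region or how many embryos were pooled. Lentivirus was added on day 5 in vitro, and ATRX ChIP-seq was done on day 14. Control neurons received mCherry, a fluorescent protein, and the others MICAL1-FL, a form of the actin-oxidising enzyme MICAL1. All cultures had the lentivirus, and the question was whether ATRX binding differs with MICAL1-FL. Each condition had 1 ChIP library. No replicate check of a difference exists, and no test between conditions was made. The peak names of the second list start with TBC_M2 rather than MICAL1-FL, so every MICAL1-FL value rests on the sample label. Ranges after a value are 95% exact intervals that cover counting error only.

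Peaks at these genes had the same median depth as those elsewhere, and a smaller share of the control peaks was deep. The depth at the summit, worked out from the authors' fold and p-value, had a median of 5 ChIP fragments in both lists, at these genes and over all peaks. At the 5 genes it ranged from 4 to 9 fragments, and depths of 6 or less made up 88.6% (control) and 88.3% (MICAL1-FL) of peaks, against 83.3% and 85.8% in the whole lists. Depths of 8 or more made up 1.52% (2 control peaks) and 5.47% (7 MICAL1-FL peaks), against 5.71% and 4.54% in the whole lists. The authors' q-value was 1 for 131 of the 132 control peaks and 122 of the 128 MICAL1-FL peaks. Over all peaks it was 1 for 95.8% (control) and 96.9% (MICAL1-FL). No peak at these genes had a q-value below 0.05. In the whole lists, 466 of 112153 control and 402 of 105674 MICAL1-FL peaks did. The lowest q-values at these genes were 0.182 (control) and 0.139 (MICAL1-FL), both at Nlgn1. Whether single peaks at these genes are ATRX binding sites was not tested. Median peak width was 359.5 bp (control) and 326.5 bp (MICAL1-FL), beside 334 and 332 bp over all peaks.

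**Figure D1:**
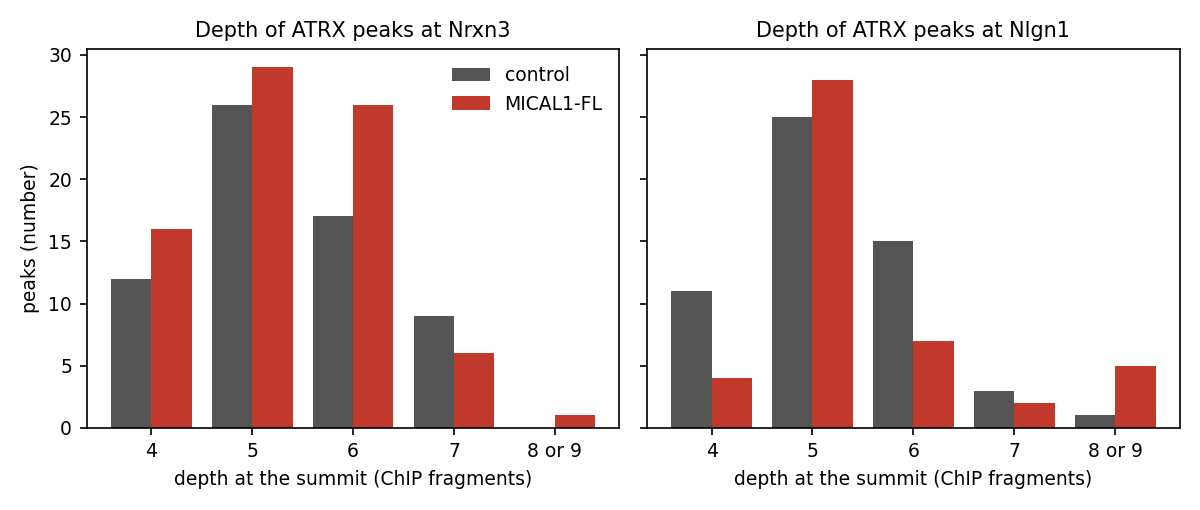
Number of ATRX peaks at Nrxn3 (left) and Nlgn1 (right) by depth at the summit in ChIP fragments, with control in grey and MICAL1-FL in red. Most peaks of both genes and lists were 4 to 6 fragments deep. At Nlgn1, 5 of 46 MICAL1-FL peaks and 1 of 55 control peaks reached 8 or 9, and at Nrxn3 1 of 78 and 0 of 64 did. Over the 5 genes the shares of such depth were 1.52% (control) and 5.47% (MICAL1-FL). Over all peaks, 5.71% (control) and 4.54% (MICAL1-FL) were 8 fragments deep or more.

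Taken as a group, the 5 genes carried about as many peaks per length in one list as in the other. Peak density was 48.4 per Mb in the control and 47.0 per Mb in the MICAL1-FL list, and dividing the MICAL1-FL number by the control number gave a ratio of 0.970 (0.754 to 1.246). Over all protein-coding genes, with the same flanks, density was 46.8 and 43.4 peaks per Mb and the ratio 0.926. The 227 protein-coding genes of 500 kb or more, the class of Nrxn3 and Nlgn1, had 47.1 and 47.5 peaks per Mb and a ratio of 1.01. The longest gene had the most peaks. A control peak was present at 4 of the 5 genes and a MICAL1-FL peak at 3, where 64.0% and 61.2% of all protein-coding genes had one. Both lists had a peak at 3 of the 5, against 48.2% of all and 226 of the 227 genes of 500 kb or more.

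Nrxn3 was the longest of the genes, with 1612 kb on chromosome 12, and had the most peaks. It held 64 control and 78 MICAL1-FL peaks, or 39.5 (30.4 to 50.4) and 48.1 (38.0 to 60.0) per Mb. Its ratio of 1.22 (0.864 to 1.72) included 1. The 1 Mb before the gene held 38 control and 37 MICAL1-FL peaks and the 1 Mb after it 42 and 45. So the control density inside Nrxn3 lay between those of its sides, and the MICAL1-FL density was a little above both. Genes of 500 kb or more had 47.5 MICAL1-FL peaks per Mb, and the side counts have counting error of their own. The lower limit of the MICAL1-FL density, 38.0 per Mb, lay above the side before the gene and below the side after it. Folds over background reached 3.05 in the control list, at 7 peaks of equal p-value, and 3.44 in the MICAL1-FL list, at 1 peak.

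Peaks of both lists met at and near the start of Nrxn3. The gene runs towards higher coordinates. The first pair lay just before the annotated span, with the control peak at chromosome 12 from 88722180 to 88722573 and the MICAL1-FL peak from 88722011 to 88722587. Their summits were 485 and 658 bp outside the span, their folds were 1.81 and 2.12 and their depths 5 and 6 fragments. The second pair lay 3.33 kb into the gene, where a control peak of 1302 bp, the widest at any of the 5 genes, enclosed a MICAL1-FL peak of 336 bp with a summit 36 bp away. The last lay 24.1 kb in, with folds of 2.11 and 2.42 and summits 30 bp apart. These 3 pairs, among the 7 at Nrxn3, fell between just before the span and 24.1 kb into a gene of 1612 kb. The same count was not made at other genes, and the grouping was not tested. Across genes, summits within 250 bp of gene ends were 2.11 (control) and 2.56 (MICAL1-FL) times as dense as at 5 to 10 kb. RefSeq lists no promoter window for Nrxn3 in this stretch, and the first is 71.8 kb from the start of the span.

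The other 4 overlapping pairs of Nrxn3 were spread over the gene body. They lay 466, 660, 848 and 989 kb from the start, with overlaps of 306, 129, 49 and 106 bp. The pair at 466 kb, chromosome 12 from 89187969 to 89188333 in the control list, had a control fold of 3.05 (7 fragments) and a MICAL1-FL fold of 1.91 (4 fragments), with summits 43 bp apart. The pair at 848 kb touched at its edges only, although its summits were 89 bp apart. Overlapping peaks made up 10.9% of the control and 8.97% of the MICAL1-FL peaks of Nrxn3. Each pair joined peaks of 4 to 7 fragments.

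RefSeq lists 3 promoter windows for Nrxn3, and the one deep inside the gene had peaks of both lists close by. It lies 1090 kb from the start of the span, 67.6% along the gene, and the tables do not say which transcript form it serves. The nearest control summit was at -710 bp from its start, in a peak from 89811464 to 89812218 that ended 14 bases before the promoter window, with a fold of 3.05 and 7 fragments. A further control summit lay at -1711 bp. On the other side, the nearest MICAL1-FL summit was 940 bp downstream, in a peak from 89813296 to 89813796 with a fold of 3.44 and 8 fragments, the strongest MICAL1-FL peak of the gene. The nearest peaks of each list thus flanked the same start and did not overlap. A further MICAL1-FL summit lay upstream, on the side of the control peaks, at -2482 bp. The control peak at -710 bp was 1 of 7 that shared the highest control fold, and these lay from 355 to 1358 kb from the start of the span. The sequence of the window (RefSeq, GRCm38.p6, chr12:89812233-89812532, plus strand, 250 bases before to 50 after the start) is shown because it is the Nrxn3 start nearest to the strongest MICAL1-FL peak, with CpG dinucleotides in capitals.
Nrxn3 internal promoter: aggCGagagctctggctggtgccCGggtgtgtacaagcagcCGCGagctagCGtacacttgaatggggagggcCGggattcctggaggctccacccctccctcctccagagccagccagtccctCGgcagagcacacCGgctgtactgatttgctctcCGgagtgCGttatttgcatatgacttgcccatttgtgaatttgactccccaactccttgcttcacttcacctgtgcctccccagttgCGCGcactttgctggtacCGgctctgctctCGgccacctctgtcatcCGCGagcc
It holds 16 CpG, where the median promoter window of protein-coding genes holds 13 and 44.8% hold at least 16. The other Nrxn3 windows, 71.8 and 231 kb from the start of the span, hold 2 and 6 CpG and had no summit within 1 kb. At the first of these the nearest summits were at -3910 bp (control) and -4845 bp (MICAL1-FL), and at the second they were 15870 and 8658 bp downstream.

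Nlgn1, which encodes neuroligin 1, spans 911 kb on chromosome 3 and runs towards lower coordinates. It held 55 control and 46 MICAL1-FL peaks, or 59.7 (45.0 to 77.7) and 49.9 (36.6 to 66.6) per Mb, with a ratio of 0.836 (0.553 to 1.260) that included 1. The direction of this ratio turned to 1.07 when only peaks with a -log10 p of at least 2 were counted. The strongest peaks of all 5 genes were here. The control list had its highest at 25441242 to 25441575, 891 kb from the start and near the far end of the gene, with a fold of 3.81, 9 fragments and a q-value of 0.182. The MICAL1-FL list had its highest at 25772869 to 25773692, 560 kb from the start, with a fold of 3.82, 9 fragments and a q-value of 0.139. Neither had an overlapping peak in the other list, and the nearest summits of the other list were 27214 and 7265 bp away.

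The promoter of Nlgn1 carried the only peak that overlapped one of the 6 RefSeq promoter windows of these genes. This control peak, from 26331628 to 26331994, had its summit 152 bp downstream of the first listed start, a fold of 1.85 and 4 fragments, the lowest depth seen at these genes. A MICAL1-FL peak from 26330856 to 26331335 lay next to it, with a summit 647 bp downstream, a fold of 2.23 and 5 fragments. It ended 524 bases from the promoter window and did not overlap the control peak. The window (RefSeq, GRCm38.p6, chr3:26331860-26332159, minus strand) is printed to show the stretch under the control peak, bases 166 to 300, in capitals.
Nlgn1 first promoter: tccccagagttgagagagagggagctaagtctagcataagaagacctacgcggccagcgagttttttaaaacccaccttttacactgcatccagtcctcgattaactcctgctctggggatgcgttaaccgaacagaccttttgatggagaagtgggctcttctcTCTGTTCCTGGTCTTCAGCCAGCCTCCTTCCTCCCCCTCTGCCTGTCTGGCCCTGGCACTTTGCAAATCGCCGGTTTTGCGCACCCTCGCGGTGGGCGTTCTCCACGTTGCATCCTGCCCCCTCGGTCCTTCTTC
The window has 14 CpG, and 135 of its 300 bases lie under the peak. At the second listed start of Nlgn1, 179 kb into the gene, the nearest MICAL1-FL summit was 1079 bp downstream with a fold of 3.34 and 8 fragments, and the nearest control summit 4310 bp downstream with a fold of 1.75.

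Few peaks of Nlgn1 were found in both lists. Overlaps occurred at 2 places, 3.64% of its control and 4.35% of its MICAL1-FL peaks. One lay 38.0 kb from the start, where peaks with folds of 2.29 and 2.29 overlapped by 110 bp with summits 436 bp apart. The other lay 293 kb in, at 26039618 to 26039903, where a control peak with a fold of 1.65 lay inside a wider MICAL1-FL peak with a fold of 1.82. Over all protein-coding genes, 8.69% of control and 9.38% of MICAL1-FL peaks in the gene windows overlapped a peak of the other list. The shares were 7.93% and 7.87% in genes of 500 kb or more, and 6.89% and 7.30% over all peaks. The lower share at Nlgn1 rests on 2 pairs and was not tested. The 5 genes together had 10 pairs, 7.58% (3.69 to 13.5) of their control and 7.81% (3.81 to 13.9) of their MICAL1-FL peaks. At least 1 overlapping pair was present at 3 of the 5 genes, where 14.8% of all protein-coding genes and 83.7% of those of 500 kb or more had one. Nrxn3 and Nlgn1 belong to the latter class.

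**Figure D2:**
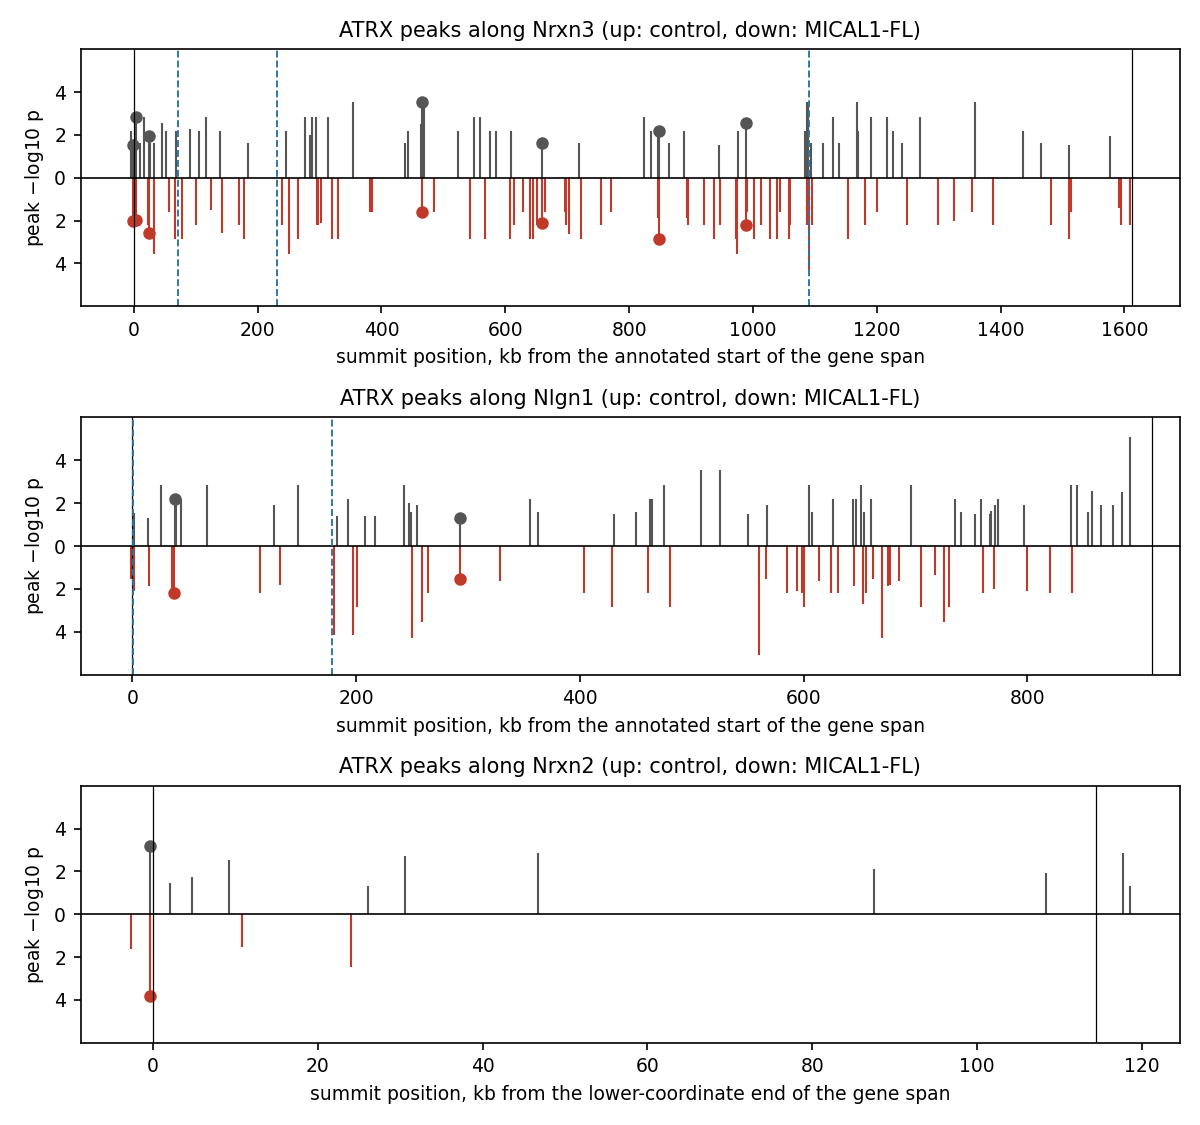
Summit positions of ATRX peaks along Nrxn3, Nlgn1 and Nrxn2 in kb from the start of the gene span (for Nrxn2 from its lower-coordinate end), with the authors' -log10 p as line length, control upwards in grey and MICAL1-FL downwards in red. Dots mark the 10 pairs that overlap between the lists, solid vertical lines the ends of the span and dashed lines the RefSeq promoter starts. At Nrxn3, 3 of the 7 pairs stand at or near the start of the span, a grouping that was not tested.

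Along the gene bodies, both lists had peaks in each of 10 equal parts of Nrxn3 and Nlgn1, in numbers from 1 to 15. Cut into 4 equal parts from start to end, Nrxn3 held 21, 13, 19 and 9 control peaks and 23, 18, 25 and 11 MICAL1-FL peaks. The part at the end of the gene had the fewest in both lists. In the same order Nlgn1 held 13, 9, 15 and 18 control peaks and 10, 7, 18 and 10 MICAL1-FL peaks, so the part before the middle had the fewest in both. Part 7 of the 10 of Nrxn3, which holds the internal promoter, had 7 control and 15 MICAL1-FL peaks (ratio 2.14, 0.822 to 6.21). Part 10 of Nlgn1 held 8 control peaks, among them its strongest, and 1 MICAL1-FL peak (ratio 0.125, 0.00282 to 0.932). It was the 1 of 20 parts whose counting interval left out 1, and both parts were named after their values were seen.

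**Figure D3:**
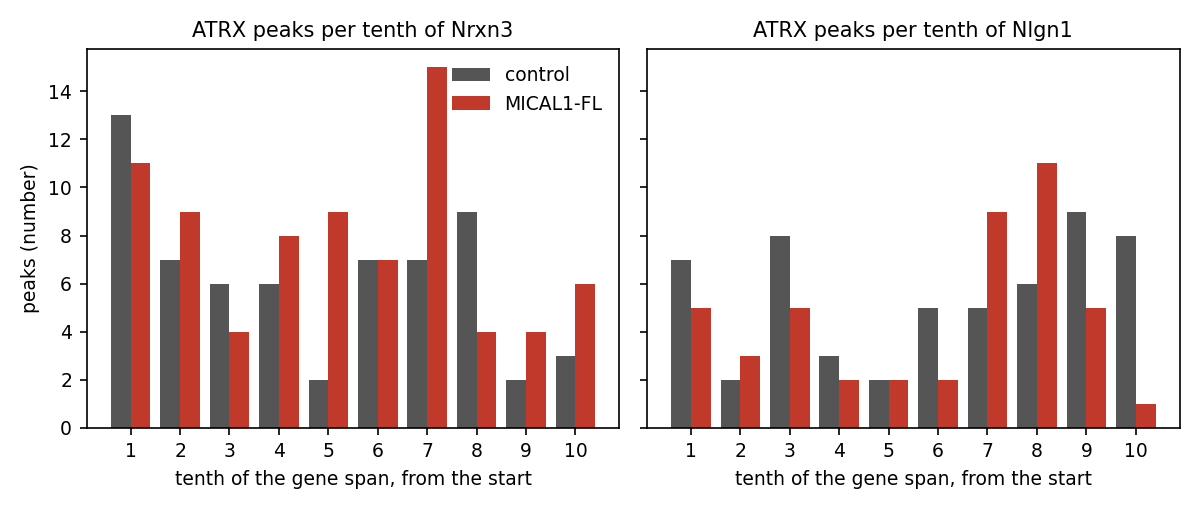
Number of ATRX peaks with a summit in each of 10 equal parts of the span of Nrxn3 (left) and Nlgn1 (right), counted from the start of the gene, with control in grey and MICAL1-FL in red. Numbers run from 2 to 15 in Nrxn3 and from 1 to 11 in Nlgn1, where part 10 holds 8 control peaks and 1 MICAL1-FL peak.

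Peaks were unevenly spaced in both genes. The median distance between neighbouring summits was 15.4 kb (control) and 14.6 kb (MICAL1-FL) in Nrxn3, and 10.8 and 12.7 kb in Nlgn1. The longest stretch with no summit of either list was 63.1 kb in Nrxn3, starting 1513 kb from its start, and 47.0 kb in Nlgn1, starting 66.8 kb from its start. Within a single list the longest were 104 kb (control) and 92.6 kb (MICAL1-FL) in Nrxn3, and 67.4 and 79.6 kb in Nlgn1. From a peak at the 5 genes, the nearest summit of the other list was a median of 5.27 kb away in both directions, against 6.22 kb (control peaks) and 5.87 kb (MICAL1-FL peaks) over the whole lists.

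Nrxn2, a shorter neurexin gene of 114 kb on chromosome 19, had more control than MICAL1-FL peaks. It held 11 control and 4 MICAL1-FL peaks, or 88.4 (44.1 to 158) and 32.1 (8.76 to 82.3) per Mb, a ratio of 0.364 (0.0844 to 1.23). The interval included 1, so the difference was not beyond counting error at this depth. Among 1499 protein-coding genes with 10 to 20 peaks in all, 6.40% had a ratio at or under that of Nrxn2. Among 2602 genes with 10 or more peaks in all, 25.5% had a ratio of 1/1.5 or less and 17.1% one of 1.5 or more. Nrxn2 was the 1 member of the 3 with 10 or more peaks that went past either value. The 1 Mb on its lower-coordinate side held 27 control and 33 MICAL1-FL peaks, and that on the other side 46 and 43.

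The strongest peak of Nrxn2 was the same place in both lists. It lay just outside the lower-coordinate end of the gene, from 6418354 to 6418623 in the control and from 6418269 to 6418659 in the MICAL1-FL list, so the control peak lay wholly inside the other. The folds were 2.80 and 3.03, the depths 7 and 9 fragments and the p-values 0.000680 and 0.000146, with summits 62 bp apart and 347 and 285 bp outside the span. The strand of Nrxn2 is not given in the tables used here, so this end is not called the start or the end of the gene. 

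The remaining Nrxn2 peaks, 10 control and 3 MICAL1-FL, had no overlap with the other list. The overlapping share was 9.09% of its control and 25.0% of its MICAL1-FL peaks, beside the 8.69% and 9.38% given for all protein-coding genes. The other MICAL1-FL peaks had summits 2.68 kb outside the same end and 10.9 and 24.0 kb inside it, with folds of 1.897, 1.82 and 2.40. No MICAL1-FL summit lay in the remaining 90.4 kb of the gene. Control peaks went on through the gene, with summits at 2.04, 4.72, 9.28, 26.1, 30.6, 46.8, 87.5 and 108 kb and folds of 1.65 to 2.67. A further pair of control summits lay 3217 and 4041 bp beyond the far end. Each of these control peaks was 4 to 6 fragments deep.

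Nlgn2, the neuroligin of inhibitory synapses, is a gene of 14.7 kb on chromosome 11 and had 2 control peaks and no MICAL1-FL peak. The stronger control peak, from 69837021 to 69837316, had its summit 656 bp downstream of the annotated start, a fold of 2.66 and 8 fragments. The weaker, from 69833531 to 69833841, lay 4.23 kb into the gene with a fold of 2.04 and 5 fragments. A count of 0 in the MICAL1-FL list allows up to 3 peaks here, or 122 per Mb, which is above the 81.1 per Mb of the control list, so a difference was not detectable at this depth. The nearest MICAL1-FL peak was 8.94 kb outside the gene. The promoter window (RefSeq, GRCm38.p6, chr11:69837735-69838034, minus strand) is shown, with CpG in capitals, because the control peak of 8 fragments, 418 bases away from it, is exceeded in depth by 1 control peak only at these genes.
Nlgn2 promoter: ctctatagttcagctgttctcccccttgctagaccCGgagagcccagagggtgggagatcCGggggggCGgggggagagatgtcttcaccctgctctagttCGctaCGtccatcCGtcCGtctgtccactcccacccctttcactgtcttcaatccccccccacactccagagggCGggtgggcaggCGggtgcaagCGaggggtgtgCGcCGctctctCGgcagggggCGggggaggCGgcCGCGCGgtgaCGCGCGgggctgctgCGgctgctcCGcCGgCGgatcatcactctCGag
It holds 26 CpG, a number reached by 22.6% of promoter windows, and was the richest of the 6 windows in CpG.

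Nlgn3, a gene of 22.2 kb on the X chromosome, had no peak in either list. In its window of 32.2 kb a count of 0 allows up to 3 peaks, or 93.2 per Mb, which is far above the density of the chromosome. X chromosome protein-coding genes together had 9.55 (control) and 7.11 (MICAL1-FL) per Mb, and 59.3% of these 966 genes had no peak in either list. The nearest peaks lay 24.4 kb (control) and 99.5 kb (MICAL1-FL) outside the gene. At this depth no lack of ATRX at Nlgn3 can be read from the count.

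Peaks near gene ends and promoters were counted for both lists. A control peak reached within 1 kb of a gene end at 4 of the 5 genes (Nrxn2, Nrxn3, Nlgn1 and Nlgn2), where 29.3% of all protein-coding genes had one. A MICAL1-FL peak did so at 2 (Nrxn2 and Nrxn3), where the share was 27.9%, and both lists had one at the same 2 genes, where it was 12.3%. Of the 227 genes of 500 kb or more, the class of Nrxn3 and Nlgn1, 114 had such a control peak. In the same class, 110 had such a MICAL1-FL peak and 65 had both. At Nlgn1 the control peak came so near by its edge only, with its summit 1109 bp from the end. Of the 6 RefSeq promoter starts, which belong to Nrxn3, Nlgn1 and Nlgn2, 3 had a control summit within 1 kb (23.1% of 21263 starts of protein-coding genes) and 2 a MICAL1-FL summit (22.0%). A control peak overlapped 1 of the 6 windows (10.3% of all windows) and a MICAL1-FL peak none (10.6%). With 5 genes and 6 starts these counts are a description of single loci.

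The genes most like each member were found by their peak densities in both lists, among protein-coding genes of like span (the shorter of the pair at least 0.8 times as long as the longer). Nrxn3 had 17 such genes, and nearest to it were Macrod2 (75 control and 98 MICAL1-FL peaks), Naaladl2 (55 and 61) and the teneurin gene Tenm3 (56 and 71). For Nlgn1, with 77 genes of like span, the nearest were the adhesion gene Sdk1 (57 and 50), the ion channel gene Trpm3 (46 and 42) and the adhesion gene Negr1 (46 and 44). For Nrxn2, with 1150, they were Cmya5 (10 and 4), Plppr5 (10 and 4) and Raph1 (9 and 3). The distance between such genes and the member, on log2 densities of both libraries, was 0.0496 to 0.208.

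**Figure D4:**
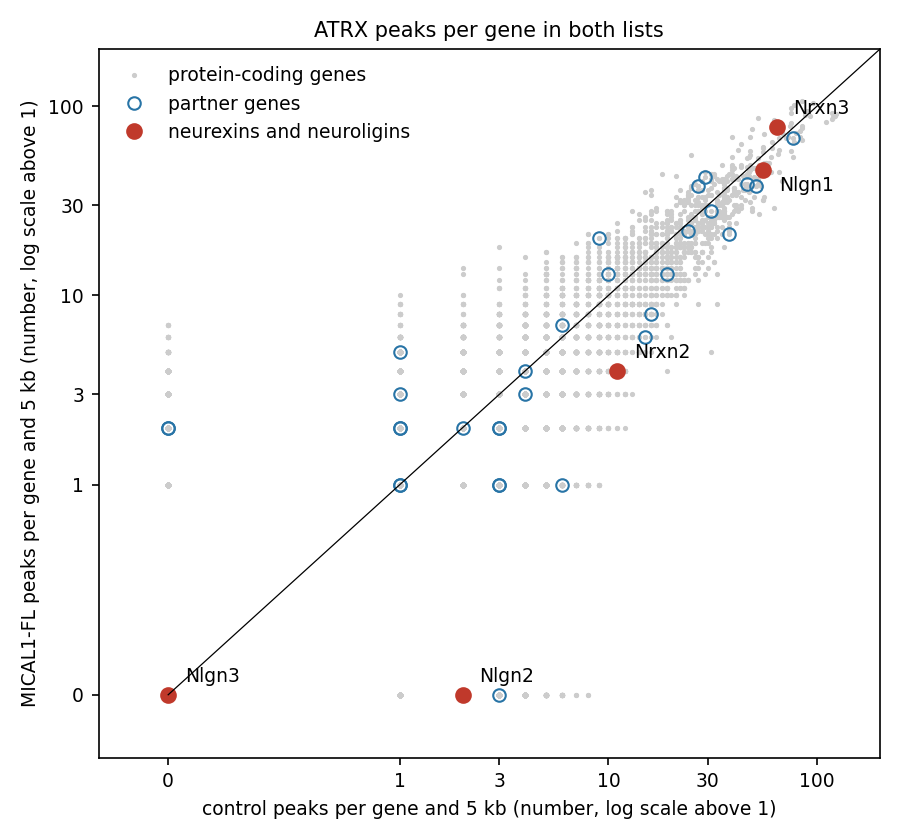
Number of ATRX peaks per gene and 5 kb on either side in the control (x axis) and MICAL1-FL list (y axis), both on a log scale above 1, for all protein-coding genes (grey), partner genes (blue circles) and the 5 neurexin and neuroligin genes (red), with a line where both numbers are equal. Nrxn3 (64 and 78) and Nlgn1 (55 and 46) lie within the grey cloud near the line, Nrxn2 (11 and 4) at its lower side, Nlgn2 at 2 and 0 and Nlgn3 at 0 and 0.

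Genes of proteins that bind neurexins or neuroligins were read in the same way, as 32 genes in 4 roles. They held 437 control and 397 MICAL1-FL peaks, 54.3 and 49.3 per Mb, with a ratio of 0.908 (0.791 to 1.04). Median density was 53.6 (control) and 50.8 (MICAL1-FL), beside medians of 32.8 and 29.4 over all protein-coding genes, which are shorter (median span 17.2 kb against 74.0 kb). More control peaks were found at 17 of the 32 genes, more MICAL1-FL peaks at 11 and equal numbers at 4. Over all protein-coding genes the shares were 35.1%, 28.7% and 36.1%, and 48.5% of those of 500 kb or more had more control peaks and 48.5% more MICAL1-FL peaks. An overlapping pair was present at 15 of the 32, beside the 14.8% of all protein-coding genes and 83.7% of those of 500 kb or more. Counted per peak, 8.01% of control and 8.82% of MICAL1-FL peaks at the partners overlapped the other list. Over all protein-coding genes these shares were 8.69% and 9.38%. Of the 14 partners with 10 or more peaks in all, 3 had a ratio of 1/1.5 or less and 1 had a ratio of 1.5 or more, beside the 25.5% and 17.1% given for all such genes.

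The neurexin ligands, secreted or postsynaptic proteins that compete with neuroligins or bind elsewhere on neurexins, had 112 control and 105 MICAL1-FL peaks at 15 genes. The calsyntenin gene Clstn2 had the most, with 46 and 39, and 5 overlapping pairs. Lrrtm4, which encodes a leucine-rich repeat protein of excitatory synapses, had 24 and 22 with 1 pair. Nxph1, which encodes a secreted neurexophilin, had 9 and 20 (ratio 2.22, 0.967 to 5.54) with 2 pairs. Cbln4, a gene of the cerebellins that bridge neurexins to receptors, had 2 peaks in each list, with 1 pair. Among the other ligands, Lrrtm3 had 15 and 6 peaks (ratio 0.400, 0.127 to 1.09), named for its size after it was seen.

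The neuroligin inhibitors Mdga1 and Mdga2, which encode membrane proteins that cover the neurexin site of neuroligins, had 33 control and 45 MICAL1-FL peaks together. Mdga2 held 27 and 38 of them, with 4 overlapping pairs and a ratio of 1.41 (0.837 to 2.40). Proteins that bind neurexins inside the cell had 110 control and 93 MICAL1-FL peaks at 7 genes. Among these the vesicle calcium sensor Syt1 had 29 and 42 with 2 pairs, and Lin7a, Lin7b and Lin7c, which encode PDZ adaptor proteins, had 16 and 8, 3 and 2, and 1 and 3 with 1 pair each. The adaptor gene Apba2 had 38 and 21 with 3 pairs, and its ratio of 0.553 (0.308 to 0.966) had a counting interval that left out 1. It was the 1 such gene among the 14 partners with 10 or more peaks, was named for this after its value was seen, and stands beside 3.11% of the 2602 protein-coding genes with 10 or more peaks.

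Proteins that bind neuroligins inside the cell had 182 control and 154 MICAL1-FL peaks at 8 genes. The scaffold gene Magi2, of 1485 kb, had the most of all partners with 77 and 68, 51.5 and 45.5 per Mb, and 4 pairs. The postsynaptic scaffold gene Shank2 had 51 and 38 with 6 pairs, and Shank1 3 and 1 with 1. Magi1 had 31 and 28 with 1 pair. Gphn, which encodes the scaffold of inhibitory synapses that binds neuroligin 2, had 10 and 13 with 2 pairs, a low density of 20.9 and 27.2 per Mb. The density of Magi2 lay between those of Nrxn3 and Nlgn1 in the control list and just under both in the MICAL1-FL list.

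**Figure D5:**
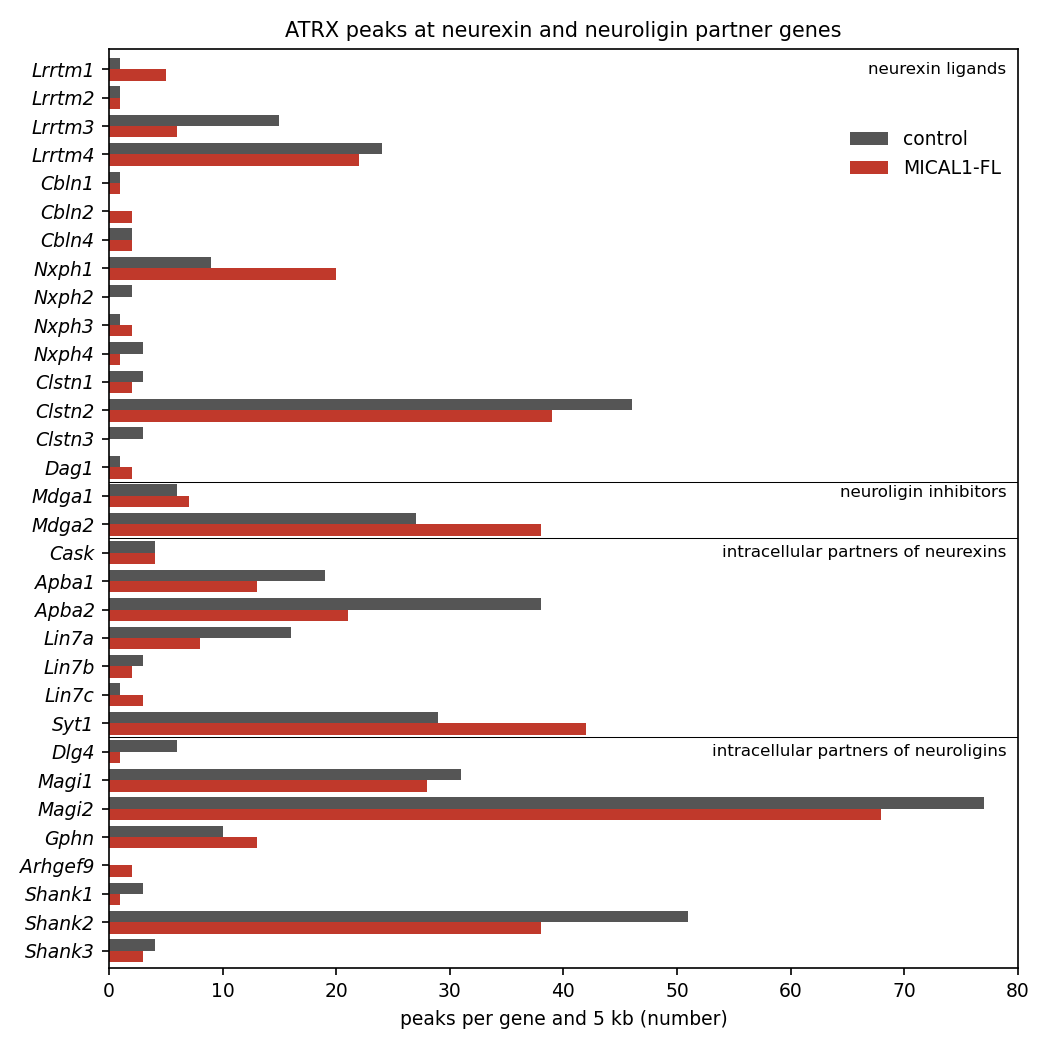
Number of ATRX peaks per gene and 5 kb on either side at 32 partner genes of neurexins and neuroligins, grouped by role, with control in grey and MICAL1-FL in red. Long genes carry the most peaks, up to 77 and 68 at Magi2, and neither list leads at all genes of a role with more than 2 genes.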

How the data were processed

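ATRX ChIP-seq peak lists of control (mCherry) and MICAL1-FL neurons were used, 1 per condition, grouped by the sample titles. The labels also name 1 input sample, which was not analysed here. The submitters' processing notes name the tools ChIPseeker (1.26.2), MACS (1.4.2), Bowtie (1.3.0) and SAMtools (1.9), but not what each did. Neither a genome build nor a calling threshold is given in the sources used here. Each list gives, as deposited by the authors, a fold (ratio over background), a -log10 p and a -log10 q per peak, a summit offset, and a score equal to the whole part of 10 times the -log10 p in every peak. The largest deposited p-value was 0.0498 (control) and 0.0496 (MICAL1-FL).

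Gene spans were those of RefSeq for mouse GRCm38.p6. That build was inferred: summits within 250 bp of gene ends were 2.11 (control) and 2.56 (MICAL1-FL) times as dense as at 5 to 10 kb. Strand came from the RefSeq promoter table, which lists Nrxn3, Nlgn1 and Nlgn2. Peaks were counted when they touched the gene or 5 kb on either side by at least 1 bp, and called overlapping from 1 bp. A peak can count for neighbouring genes. Depth was recovered by taking fold as pileup + 1 over background + 1 and p as a Poisson probability, which matched within 0.003 of the -log10 p for 99.95% (control) and 99.97% (MICAL1-FL) of peaks. This reading is an inference.

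Intervals are exact Poisson (densities), exact conditional binomial (ratios) and exact Clopper-Pearson (shares). The limit of a count of 0 was set at 3 peaks. Members always named were the 5 genes. Peaks named were all of a gene with 10 or fewer in a list, and otherwise the strongest, the overlapping and the end peaks, of which examples are given. Partners named were those with an overlapping pair and the 3 with most peaks in each list. Members, partner list and rules were chosen with earlier results of these data known. Counting, overlap and depth steps were tested on simulated data. The simulated depths used the same formula, so they cannot show whether the authors' columns follow it. Python 3.11.15, pandas 2.3.3 and scipy 1.17.1 were used.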

Additional observations from a re-analysis of the deposited data

How the results depend on the processing

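With 1 library per condition and peaks of 4 to 9 fragments, counting error is the smallest error these values can have. Of 25 alternatives for density, ratio and overlap over the 5 genes, 20 stayed within the counting interval of the reported value. Counting only peaks with a -log10 p of at least 2 lowered the density to 30.1 (control) and 33.8 (MICAL1-FL) peaks per Mb, since fewer peaks are counted. Allowing peaks up to 1 kb apart raised the overlapping share from 7.58% and 7.81% to 20.5% of control and 23.4% of MICAL1-FL peaks. It fell to 3.79% and 3.91% when each peak had to cover at least 50% of the other, to 4.55% and 4.69% for summits within 200 bp, and to 4.88% and 4.35% for peaks with a -log10 p of at least 2. Leaving out Nrxn3 lowered the ratio from 0.970 to 0.735, as Nrxn3 holds 78 of the 128 MICAL1-FL peaks. Leaving out Nrxn3, Nlgn1 or Nrxn2, and taking the ratio of covered bases, were alternatives chosen after seeing the data. The ratio was 1.06 without Nlgn1, 1.02 without Nrxn2, 1.02 relative to autosomal peaks, 1.12 for peaks with a -log10 p of at least 2, and 0.903 for covered bases. With a flank of 20 kb, Nlgn2 had 3 control peaks and 1 MICAL1-FL peak, and Nlgn3 still 0 and 0. No paired analysis was possible because each condition has 1 library and the result comes from no test.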

Other observations

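Other annotated genes reach into the windows of these genes, so some peaks cannot be given to a neurexin or neuroligin gene alone. The peaks of both lists at the lower-coordinate end of Nrxn2 lie within the span of the lncRNA gene Gm14965, which ends at the same place. The protein-coding genes Rasgrp2 and Slc22a12 and the lncRNA gene Gm52381 also reach into the Nrxn2 window, and 2 control peaks beyond the far end of Nrxn2 touch Slc22a12. In Nrxn3, 1 control and 1 MICAL1-FL peak touch the lncRNA gene Gm40537, and in Nlgn1, 1 MICAL1-FL peak touches the pseudogene Gm6197. At the start of Nlgn1, the lncRNA gene A830092H15Rik spans the gene end, and 1 MICAL1-FL peak with a summit 1471 bp outside Nlgn1 lies within it and 1 control peak, that at the promoter, reaches into it. Spem1, Spem2 and Tmem256 reach into the window of Nlgn2, and Med12 into that of Nlgn3, with no peak of those windows in them.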
